A study of Saccharomyces cerevisiae with 1245 samples.

Results

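RNA polymerase III, the enzyme that transcribes tRNA genes, the 5S rRNA genes and a handful of other short non-coding genes, was profiled in budding yeast through 9 of its subunits and its repressor Maf1. Libraries were taken where the labels name Rpo31, Ret1, Rpc82, Rpc53, Rpc37, Rpc34, Rpc31, Rpc25, Rpc17 or Maf1 as the target, the assay as ChIP-exo and no heat shock. These were 18 of the 1245 samples of the series, and no library named Rpc11, the last of the 11 names searched. ChIP-exo trims immunoprecipitated DNA with an exonuclease up to the crosslinked protein, and each deposited list gave the peaks of 1 library as single-base positions. The 18 lists held 6393 peaks.

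All groups were grown in YPD at 25 °C and crosslinked with 1% formaldehyde, with no heat shock. Rpo31, Ret1, Rpc82, Rpc53, Rpc37, Rpc25, Rpc17 and Maf1 carried a TAP tag (15 libraries), and Rpc34 and Rpc31 an HA tag (3 libraries). Rpc82 and Rpc31 had 1 library each and the other 8 targets 2. The libraries set against them, also from tagged strains without heat shock, were TFIIIB (Bdp1 and Brf1, 4 libraries), TFIIIC (TFC1, Tfc3, Tfc4, TFC6, Tfc7 and Tfc8, 12 libraries), RPC40 and Rpc19, which RNA polymerases I and III share (4 libraries), and 7 subunits of RNA polymerase II (14 libraries). The labels do not say whether the libraries of a target came from separate cultures, so p-values measure the spread between these libraries and targets, part of which may be technical. Most targets of a group are parts of the same complex and are not independent of each other. A p-value over targets thus contrasts these complexes and does not measure a spread between independent repeats. The tag was the only handle on each protein, and the untagged samples of the series were not analysed here.

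Rpo31 and Ret1 are the largest subunits and form the active centre. Rpc82, Rpc34 and Rpc31 form a trimer that acts in initiation, Rpc53 and Rpc37 a dimer that acts in termination and reinitiation, and Rpc25 and Rpc17 the stalk. On a tRNA gene, TFIIIC binds the A box and the B box inside the transcribed sequence and places TFIIIB just upstream of the start site, and TFIIIB then recruits the polymerase. Maf1 represses the polymerase when growth conditions worsen.

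The Rpc82 and Rpc31 libraries stood apart from the rest and went against their labels. Rpc82 had 15 peaks and Rpc31 had 28, against 294 to 514 in the 14 libraries of the other 7 subunits. Neither had a peak within 250 bp of a tRNA gene. A count of 0 allows a share of up to 20% for Rpc82 and 10.7% for Rpc31, from 3 peaks of each list and for counting error only. Neither had a peak at a 5S rRNA gene either, and 11 of the Rpc82 peaks and 9 of the Rpc31 peaks fell in the stretch around the CUP1 metallothionein genes. In that stretch, individual places had a peak in 48.4% to 75.4% of the 1063 libraries of other targets. Rpc82 was under the minimum of 20 peaks and entered no comparison, and Rpc31 entered those of shares.

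The 7 remaining subunits placed nearly all of their peaks at tRNA genes, the 275 nuclear genes whose products carry amino acids to the ribosome. A peak counted as at a tRNA gene when it was no more than 250 bp from it. Rpo31 had 90.1% and 85.1% of its peaks there in its libraries, and Ret1 had 86.4% and 92.3%. Rpc53 had 92.7% in each, and Rpc37 had 88.9% and 89.6%. The libraries of these 4 subunits, of the core and the termination dimer, thus lay between 85.1% and 92.7%.

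Rpc34, of the initiation trimer, had 90.6% and 86.4% of its peaks at tRNA genes. Of the stalk, Rpc17 had 86.5% and 90.1%, and Rpc25 had 68.9% and 93.5%. The first Rpc25 library was the lowest of the 14, and its 514 peaks made the longest list. Over the 7 subunits the share averaged 88.1% ± 3.46 (SD, n = 7 targets).

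With each peak given to its nearest gene, the peaks of these 14 libraries fell at 270 to 275 of the 275 tRNA genes. Counted instead by gene, with any peak no more than 250 bp away, so that close neighbours can share a peak, 272 genes had a peak in all 14 libraries, 1 gene lacked it in 1 library and 2 genes in more. Within a target, 97.3% to 100% of the peaks of the shorter list had a peak of the longer one within 100 bp, while identical bases were rare, at 0.340% to 6.30% of the shorter list.

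Maf1 had peaks at most tRNA genes but fewer of them. It had 265 of 346 peaks there in its first library and 204 of 359 in its second, or 76.6% and 56.8%. Given to their nearest genes, those peaks fell at 264 and 204 tRNA genes. Counted by gene, 206 had a peak in both Maf1 libraries, 65 in 1 and 4 in none. Share and gene number in the second library were both below those of every library of the 7 subunits, and in the first library the share was above that of the first Rpc25 library alone. Of the shorter Maf1 list, 67.6% had a match in the longer one, the lowest of the 8 targets with 2 libraries. Within the Maf1 lists, 1.73% and 0% of peaks had the highest score the authors give. The score scale was not compared between lists.

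**Figure D1:**
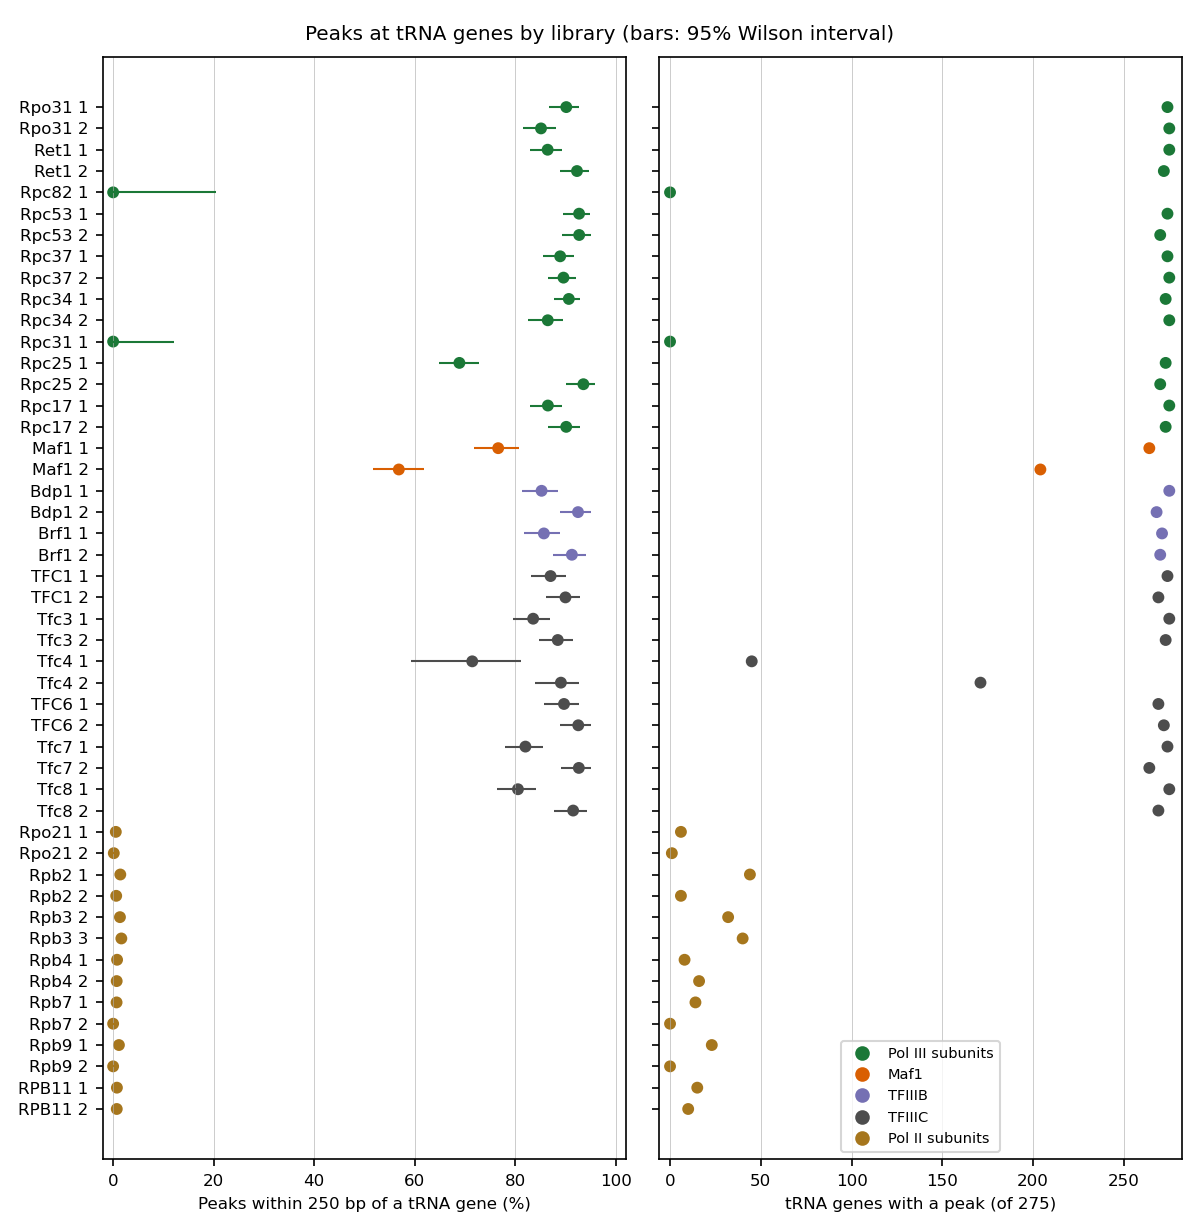
Share of each library's peaks within 250 bp of a tRNA gene (left, %, with the 95% Wilson interval) and number of tRNA genes with a peak (right, of 275), 1 point per library. Subunits of polymerase III other than Rpc82 and Rpc31 sit between 68.9% and 93.5% with 270 or more genes, Maf1 lies lower, and polymerase II subunits stay under 2%.

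Against TFIIIB and TFIIIC, the share at tRNA genes was not shown to differ. It averaged 76.0% ± 29.5 over the 9 polymerase III targets, Rpc31 and Maf1 included, and 87.1% ± 3.21 over the 8 TFIIIB and TFIIIC targets (SD over targets). The difference of -11.1 percentage points gave an adjusted p = 0.609 in a two-sided exact permutation test over targets, with Benjamini-Hochberg adjustment over 9 tests. Without Rpc31 the difference was -1.60 points, and the adjusted p of the exact test was 0.820. The wide spread of the polymerase III targets was thus mostly 1 library at 0.

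Polymerase II subunits gave the contrast. They had 0 to 47 peaks at tRNA genes in lists of 372 to 3296 peaks. The share averaged 76.0% over the 9 polymerase III targets and 0.748% ± 0.408 over the 7 polymerase II targets, with an adjusted p = 0.00315 (exact permutation over targets). With Rpc31 left out the difference was 84.7 points, in place of 75.2. Among 743 libraries of other targets with at least 20 peaks the median share was 0.658%, and 2 of them reached the lowest value of the 7 subunits.

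The library numbers in the titles were grouped into blocks of 1000, a grouping made here, since the labels do not say that it marks a batch. With numbers from 14000, the 6 libraries of the 7 subunits had 90.1% to 93.5% of their peaks at tRNA genes, and 5 TFIIIB and TFIIIC libraries had 71.4% to 92.6%. With numbers from 11000 or 12000, the 3 libraries of the 7 subunits were at 68.9% to 86.5%, below all 6 of those. Later subunit libraries had 88.9% to 90.1% from 17000, 85.1% to 89.6% from 18000 and 86.4% from 19000. Those from 18000 and 19000 thus overlapped the early ones. Of TFIIIB and TFIIIC, 5 libraries from 11000 had 80.5% to 89.7%, and 1 from 12000 had 85.2%. Whether these numbers mark a batch, and its part in the shares, was not tested.

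Among the 8 targets with 2 libraries, Maf1 included, none of 3 measures separated targets from each other beyond the difference between their own libraries. A one-sided exact test over all 2027025 pairings of the 16 libraries asked whether libraries of 1 target were more alike than other pairs. The mean squared difference within targets was 0.685 times that of all pairs for the share at tRNA genes (adjusted p = 0.270 by the exact test). It was 0.976 times for the position along tRNA genes (adjusted p = 0.614, exact) and 1.40 times for the logarithm of the peak number (adjusted p = 0.872, exact). A p over the threshold does not show that the subunits act alike.

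Few tRNA genes were missed. The gene with peaks of the fewest targets was YNCC0008W (chromosome III, 149920 to 149991), with 1 peak in 1 library each of Ret1, Rpc17, Rpc34, Rpc37 and Rpo31. Its neighbour YNCC0009C (chromosome III, 151284 to 151356) had 9 libraries of 7 targets. YNCN0008C (chromosome XIV, 519099 to 519169) had 13 libraries and SUP53 (chromosome III, 90859 to 90972) had 14, of 7 targets each. These 4 genes had no Maf1 peak, and 3 of the 4 are on chromosome III. At the first of them TFIIIB had 2 of 4 libraries and TFIIIC 2 of 12, so the gaps were not limited to the polymerase. All 271 other tRNA genes had peaks of 8 targets, in 15 or 16 libraries.

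SUP4, a tyrosine tRNA gene long used to study polymerase III in vitro (chromosome X, 542956 to 543044), had a peak in all 16 libraries, 20 peaks in all. Its lowest distance from the 5′ end was -17 bp and its median 14 bp for peaks up to the 3′ end, while 1 peak, of Rpc34, was 78 bp past the 3′ end. The Maf1 peaks at SUP4 were at 73 and 71 bp, deeper in the gene than the 1 or more peaks that every other library had at 22 bp or less. SUP53, a leucine tRNA gene, differed from this layout. The median polymerase III peak up to its 3′ end was at 82.5 bp in a gene of 114 bp, and the 3 TFIIIB peaks were at 66 to 69 bp, against 9 to 13 bp at SUP4.

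Position was measured at the 263 tRNA genes with no other tRNA gene within 500 bp, as the signed distance of a peak from the annotated 5′ end. The median peak lay just inside the gene in every library of the 7 subunits. The medians were 17 and 15 bp for Rpo31, 14 and 10 bp for Ret1, 13 and 18 bp for Rpc53, and 11 and 13 bp for Rpc37. They were 2 and 14 bp for Rpc34, 16 and 9 bp for Rpc25, and 9 and 13 bp for Rpc17. Libraries of 1 target thus differed by up to 12 bp, as much as targets did. Maf1 medians were 8.5 and 8 bp, but its peaks formed a further group deeper in the gene. The upper quartiles of the Maf1 libraries were 55.75 and 46 bp. In the first library the 5 bp bin from 55 bp held 45 of 258 peaks. In the second the bin from 50 bp held 15 of 196.

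Within a library many peaks shared a single offset. In the second Rpc25 library 257 of 265 peaks were exactly 9 bp from the 5′ end, and in the second Rpc17 library 240 of 297 were at 13 bp. In the first Rpo31 library 143 of 335 were at 16 bp. This commonest offset differed within targets. It was 16 bp in the first Rpc25 library and 9 bp in the second, and 1 bp and 14 bp in the Rpc34 libraries. TFIIIB did the same, with 254 of 263 peaks at 10 bp in the second Brf1 library and 216 of 294 at 9 bp in the first. How the authors' peak caller set the base within a bound region is not given in the sources used here, so its part in the shared offset was not tested.

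**Figure D2:**
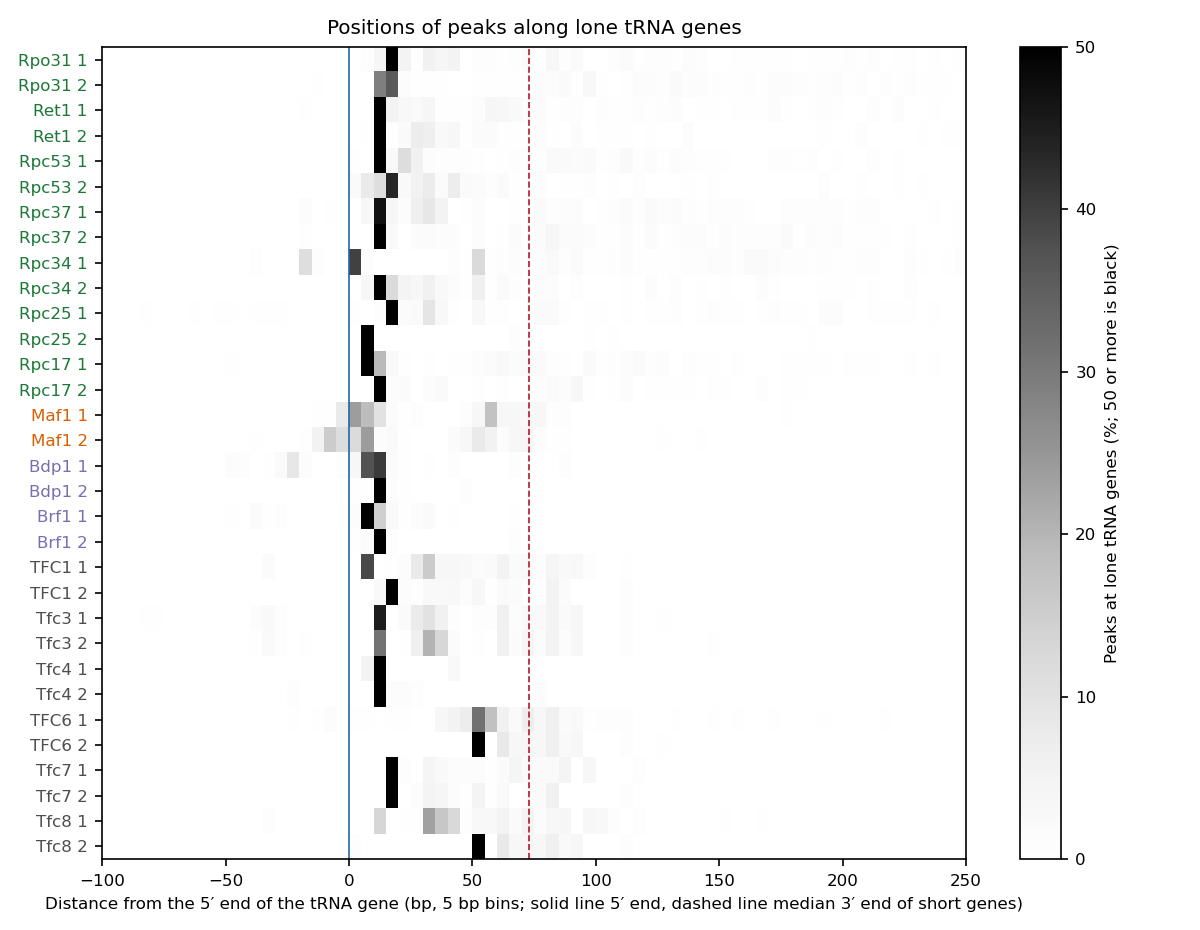
Share of each library's peaks at lone tRNA genes (grey scale, %) in 5 bp bins of distance from the 5′ end, for libraries with peaks there. Most polymerase III and TFIIIB libraries are darkest in a bin just inside the gene. Maf1 is paler and spread on both sides of the 5′ end, with a further group deeper in the gene. Both TFC6 libraries and 1 Tfc8 library are dark near 50 bp.

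By the median peak, polymerase III targets averaged nearer the 5′ end of the gene than TFIIIC targets, though not every TFIIIC target lay apart. The target medians averaged 11.9 bp ± 2.92 over 8 polymerase III targets and 28.5 bp ± 16.4 over 6 TFIIIC targets. The difference was -16.6 bp, with an adjusted p = 0.00524 (two-sided exact permutation over targets). TFC6 at 53.0 bp and Tfc8 at 44.5 bp were the farthest from the 5′ end, Tfc3 was at 22.8 bp and TFC1 at 22 bp, while Tfc4 at 12.5 bp and Tfc7 at 16.0 bp were within the range of the polymerase III targets, 8 to 16 bp.

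Against TFIIIB the position was not shown to differ. The 8 polymerase III targets averaged 11.9 bp, and TFIIIB averaged 10.3 bp over Bdp1 at 11 bp and Brf1 at 9.5 bp, a difference of 1.66 bp with an adjusted p = 0.625 (exact permutation). With 2 TFIIIB targets the smallest unadjusted p of this test was 0.0222. With the mean of each library's peaks in place of the median, which counts the distant peaks described next, the difference from TFIIIB was 26.0 bp at an adjusted p = 0.05 and the difference from TFIIIC was -0.611 bp at an adjusted p = 0.940 (both exact permutation).

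Short and long genes were compared by the median distance from the 5′ end, as a description with no test. Among lone genes, 182 were 74 bp or shorter and 36 were 100 bp or longer. In 8 of the 14 libraries of the 7 subunits the median was at most 4 bp farther in long genes, and in the other 6 it was up to 68.0 bp farther. Libraries of 1 target fell on both sides: the second Rpc17 library was at 13 bp in both classes, and the first was at 50.5 bp in long genes and 9 bp in short ones. The first Rpc34 library, the second Rpo31 library and the second Rpc37 library moved by 55.0, 35.0 and 68.0 bp. The 2 Maf1 libraries moved by 4 and 1 bp, and the 4 TFIIIB libraries by 0 to 1 bp. Of 12 TFIIIC libraries, both of Tfc4 moved by 0 bp and the other 10 by up to 67.0 bp. In the second TFC6 library the median was 20 bp before the 3′ end in each class, and 99.2% of its peaks were at that one distance.

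Part of the peaks of the subunits lay downstream of the gene. Past the annotated 3′ end lay 12.8% and 22.2% of the peaks of Rpo31 at lone tRNA genes, 14.5% and 4.88% of Ret1, and 14.8% and 4.24% of Rpc53. The values were 16.3% and 20.6% for Rpc37, 23.1% and 5.86% for Rpc34, 11.7% and 1.13% for Rpc25, and 13.3% and 4.71% for Rpc17. The median of these peaks was 26.0 to 94.0 bp past the 3′ end, depending on the library. All 14 libraries had some, and their range was wide within targets.

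In TFIIIB libraries 0% to 0.329% of peaks were past the 3′ end, below every library of the 7 subunits. In TFIIIC libraries the values were 0% to 5.03%, the highest in the first Tfc8 library, and these overlapped the lowest subunit libraries. RPC40 had 4.61% and 3.60%, and Rpc19 had 21.7% and 1.90%, within the range of the subunits. Maf1 had 0.388% in its first library, below all 14, and 1.53% in its second, above the second Rpc25 library alone. This measure was chosen after the lists had been seen and was given no test. Longer lists had more such peaks: the second libraries of Ret1, Rpc53, Rpc25 and Rpc17, with 294 to 344 peaks, had 1.13% to 4.88%, the libraries with 385 or more had 11.7% or more, and both libraries with 369 peaks lay apart, at 14.8% for Rpc53 and 5.86% for Rpc34. The part of list length was not tested.

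Peaks past the 3′ end of lone tRNA genes nearly always accompanied a peak nearer the 5′ end. In the libraries of the 7 subunits, 621 of 623 such peaks were at a gene that had another peak, up to its 3′ end, in the same library. Each of these libraries had peaks at 270 to 275 of the 275 tRNA genes. Nearly any set of tRNA genes would thus give a similar count, which is not particular to genes with downstream peaks. From 5 to 170 tRNA genes per library had 2 or more peaks in the 14 libraries, against 1 to 41 in TFIIIB, 0 to 59 in TFIIIC and 1 and 0 in the Maf1 libraries. They recurred at the same genes: 119 tRNA genes had a downstream peak in at least 1 of the 18 libraries, 35 had one in 7 or more, and 156 had none.

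The gene with the most peaks was YNCP0001C (chromosome XVI, 56169 to 56274), with 46. Of these, 28 were past the 3′ end, in 15 of the 16 libraries with tRNA peaks, at 2 to 176 bp beyond it, and the 18 others had a median of 13.5 bp from the 5′ end. YNCD0007C (chromosome IV, 488797 to 488870) had 41 peaks, 23 of them 97 to 177 bp past the 3′ end in 14 libraries. YNCE0018W (chromosome V, 354934 to 355005) had 37, with 22 at 26 to 232 bp past it in 15 libraries. YNCP0009W (chromosome XVI, 572269 to 572339) had 35, with 20 at 15 to 108 bp past it in 14 libraries. At these 4 genes neither TFIIIB nor TFIIIC had a peak beyond the 3′ end.

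YNCL0033C (chromosome XII, 605300 to 605432), at 133 bp among the longest tRNA genes, was 1 of 7 genes with 34 peaks. All of its peaks were inside the gene, at 5 to 118 bp with a median of 71.0 bp. Its TFIIIC peaks were at a median of 112 bp and its TFIIIB peaks at 15.0 bp.

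Upstream peaks were most frequent in a few libraries. Maf1 had 8.53% and 32.7% of its peaks at lone tRNA genes upstream of the 5′ end. Most of these lay close to that end. The fullest upstream 5 bp bin began at -5 bp in the first Maf1 library (20 peaks) and at -10 bp in the second (30 peaks). The farthest began at -15 and -40 bp. The first Rpc34 library had 13.6% of its peaks upstream. The other 13 libraries of the 7 subunits had 0% to 4.68%. Of TFIIIB, the first Bdp1 library had 14.8% and the other 3 had 0% to 3.40%. Of the subunits shared with polymerase I, RPC40 had 0% and 8.99%, above the first Maf1 library, and Rpc19 had 7.65% and 0%. The second Rpc34 library had 0%, so this feature did not repeat within the target.

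**Figure D3:**
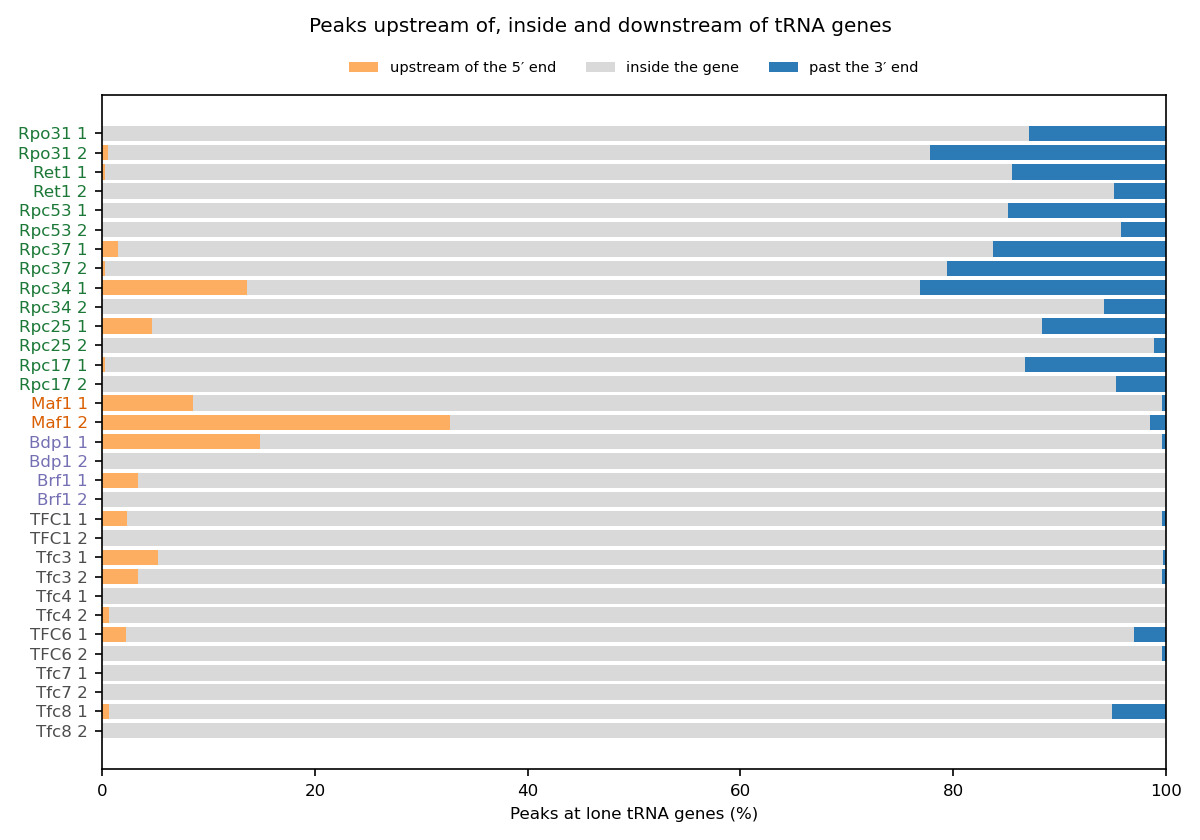
Share of peaks at lone tRNA genes upstream of the 5′ end, inside the gene and past the 3′ end, 1 bar per library. The part past the 3′ end reaches 23.1% in polymerase III subunits and is at most 0.329% in TFIIIB and 5.03% in TFIIIC, and the upstream part is largest in the second Maf1 library, at 32.7%.

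The 5S rRNA genes, which need TFIIIA besides TFIIIC and TFIIIB, had 4 to 12 peaks in each of the 16 libraries with tRNA peaks. The peaks fell at the copies RDN5-3, RDN5-4, RDN5-5 and RDN5-6 (chromosome XII, between 472465 and 489469), each with a peak in all 16 libraries, and none at RDN5-1 or RDN5-2. The share of peaks at 5S genes averaged 1.67% ± 0.807 over 9 polymerase III targets and 0.00349% ± 0.00924 over 7 polymerase II targets, with an adjusted p = 0.00315 (exact permutation). At RDN5-3 a peak was also present in 453 of the 1063 libraries of other targets, or 42.6%, so a peak at the 5S genes was common in the series.

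Along the 5S genes the polymerase III peaks ran from -164 to 269 bp from the 5′ end with a median of 44.0 bp over 119 peaks. The low end came from the first Rpc25 library alone and the high end from the first Maf1 library alone, and without both the remaining peaks ran from -11 to 117 bp with a median of 46.0 bp. The 29 TFIIIB peaks ran from -12.0 to 80.0 bp with a median of 23.0 bp, and the 50 TFIIIC peaks from 36 to 105 bp with a median of 65.0 bp. The copies are near-identical repeats, so how reads were placed among them bears on these values and was not tested.

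Outside tRNA and 5S genes, the other known genes of the polymerase had peaks of the same 7 subunits. RPR1, SCR1 and SNR52 had a peak in all 16 libraries with tRNA peaks, Maf1 included, and SNR6 in 15, all but the second Maf1 library. RPR1 encodes the RNA of RNase P, SCR1 that of the signal recognition particle, SNR52 a guide RNA of rRNA methylation and SNR6 the U6 spliceosomal RNA. The Rpc82 and Rpc31 libraries had no peak at any of them.

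At RPR1 (chromosome V, 117667 to 118035, minus strand, 369 bp) the polymerase had peaks inside the annotated gene and upstream of it. The factors had peaks only upstream of the annotated 5′ end. Whether this end is the start of transcription was not examined, here or at SNR52. The 62 polymerase III peaks ran from -112 to 360 bp from the 5′ end, with 16 upstream and 46 inside. All 4 TFIIIB peaks were at -95 to -58 bp, and all 13 TFIIIC peaks at -67 to -22 bp. Each of the 14 libraries of the 7 subunits had both an upstream peak and peaks inside the gene. Maf1 had a single peak in each library, at 100 and 66 bp, and none upstream.

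SCR1 (chromosome V, 441987 to 442508, plus strand, 522 bp) had 89 polymerase III peaks, from -9 to 513 bp, with 4 to 9 in each library of the 7 subunits. Of the 7 TFIIIB peaks, 4 libraries had 1 each at 20 to 25 bp and the first Bdp1 library had the others, up to 438 bp. TFIIIC had 17 peaks in 7 of 12 libraries, from 25 to 481 bp. Maf1 had 1 peak per library, at 223 and 306 bp. The interior of SCR1 also held a peak in 205 of 1063 libraries of other targets (19.3%), whereas its 5′ end did in 1.69%.

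At SNR52 (chromosome V, 431129 to 431220, minus strand, 92 bp) peaks formed groups, which the polymerase and the factors partly shared. The TFIIIB peaks were at -137 to -133 bp in all 4 libraries. TFIIIC had 15 peaks, all upstream, from -177 to -31 bp with a median of -35 bp. The first libraries of TFC1, Tfc7 and Tfc8 and the second of Tfc3 each had a peak at -137 to -130 bp, at or beside the TFIIIB peaks. The peak at -177 bp was in the first Tfc3 library. The polymerase had 41 peaks, 22 upstream and 19 inside the gene, from -163 to 77 bp, and each of the 14 libraries of the 7 subunits had a peak within the upstream group at -163 to -130 bp.

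SNR6 (chromosome XII, 366235 to 366346, plus strand, 112 bp) carries its B box downstream of the transcribed sequence. The 23 polymerase III peaks had a median of 25.0 bp from the 5′ end, with 6 upstream, 14 inside and 3 past the gene, the last in Rpo31, Rpc37 and Rpc34. The TFIIIB peaks were at -30 to 26 bp. TFIIIC had 10 of its 15 peaks past the gene, and the median of the 15 was 236 bp from the 5′ end.

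**Figure D4:**
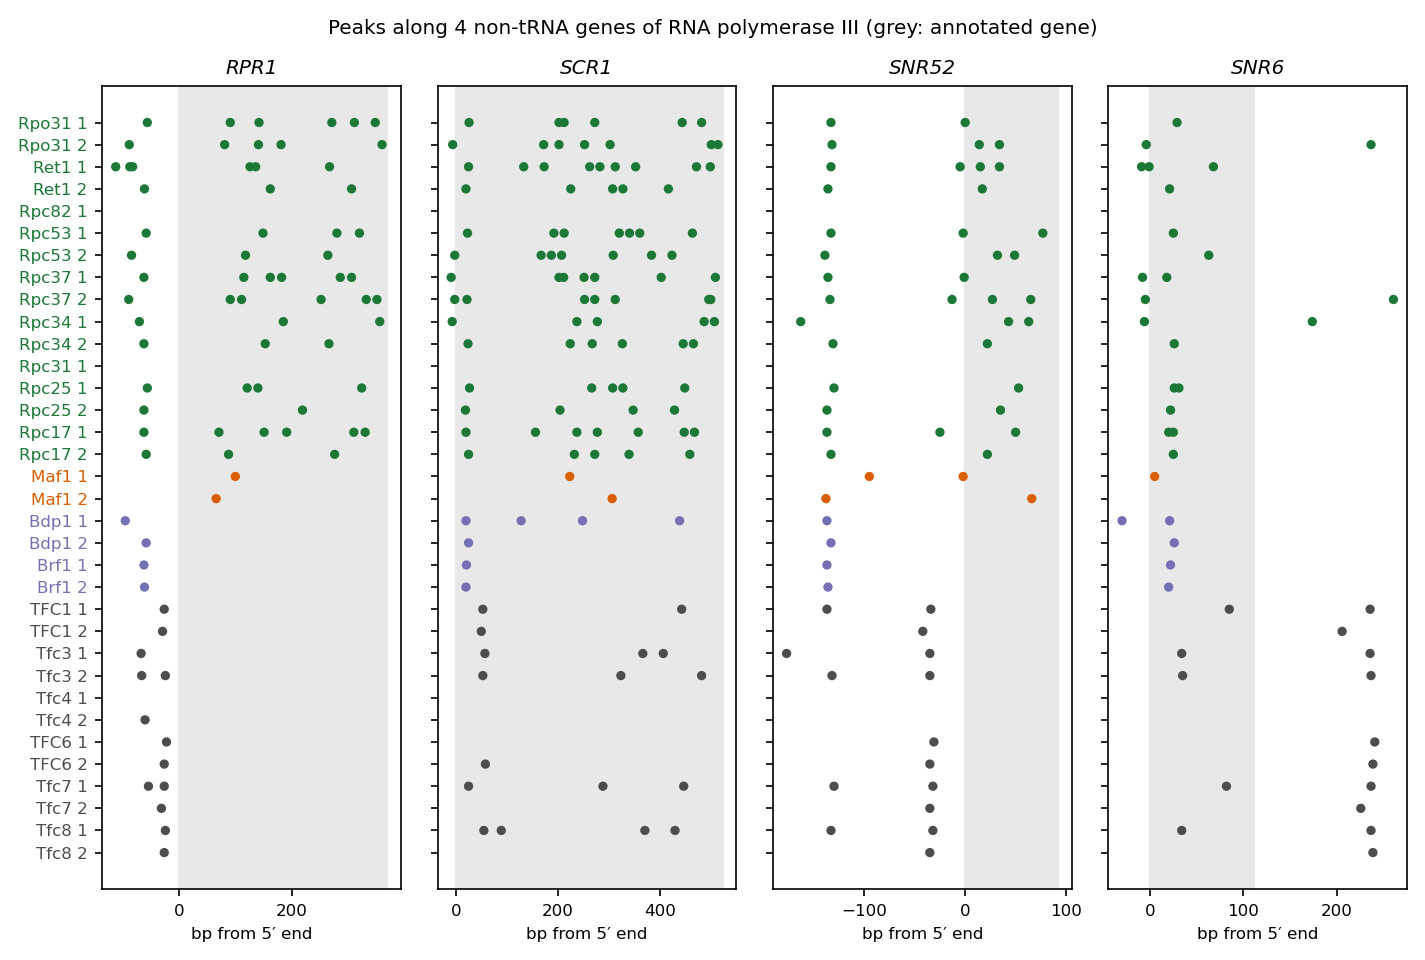
Peaks along RPR1, SCR1, SNR52 and SNR6, as distance from the annotated 5′ end (bp), 1 row per library with the gene in grey. Polymerase III peaks fill RPR1 and SCR1 up to 360 and 513 bp. TFIIIB lies upstream of RPR1 and SNR52, and near the 5′ end of SCR1 and SNR6 apart from 1 Bdp1 library at SCR1. At SNR6, 10 of 15 TFIIIC peaks lie past the gene and 5 inside it.

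A pair of less known loci also had peaks. RNA170, a non-coding RNA gene of unclear function (chromosome XIII, 667288 to 667456), had 5 peaks, 1 in each library of Rpo31 and Rpc37 and in the first Ret1 library. TFIIIC had a peak there in 11 of 12 libraries and TFIIIB in 1 of 4. ZOD1 (chromosome XIII, 91970 to 92027), a site first described for its disparity between TFIIIC or TFIIIB and the polymerase, had 1 peak in each of the 14 libraries of the 7 subunits, at -30 to 28 bp from its annotated 5′ end. All 4 TFIIIB and all 12 TFIIIC libraries had a peak there, and both Maf1 libraries had none.

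Peaks away from tRNA and 5S genes, joined where within 100 bp, formed 328 places, of which 81 had peaks of at least 2 polymerase III targets. By number of targets, 4 places had 8, 7 places had 7, and 34 had 2. The first 7 in this order were at SCR1, RPR1, SNR52, SNR6, the upstream side of RPR1, the 5′ end of SCR1 and ZOD1. The next 3 lay outside the known genes.

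The eighth was an intergenic place between TIM21 and RPL26B (chromosome VII, 555212 to 555257), 245 bp from TIM21, which encodes a mitochondrial import protein, and 6405 bp from the nearest tRNA gene. It had 12 libraries of all 7 subunits and neither Maf1 library. All 4 TFIIIB and all 12 TFIIIC libraries also had a peak there, as against 1.32% of libraries of other targets and no polymerase II library. No Pol III gene is annotated there in the table used.

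The ninth place (chromosome VIII, 212575 to 212807) was in the CUP1 stretch and had 75.4% of libraries of other targets. The tenth (chromosome IX, 205512 to 205557) was 78 bp from YIL082W-A, a gene of the Ty3 retrotransposon, which is known to insert just upstream of polymerase III start sites. It had 9 libraries of 7 targets, Rpc31 among them, with 3 TFIIIB and 3 TFIIIC libraries. A second Ty3 gene, YGR109W-B, held a place of 6 targets (chromosome VII, 712215 to 712535) and was chosen after its values were seen. Peaks at repeated elements depend on how reads were placed among copies, which was not tested.

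**Figure D5:**
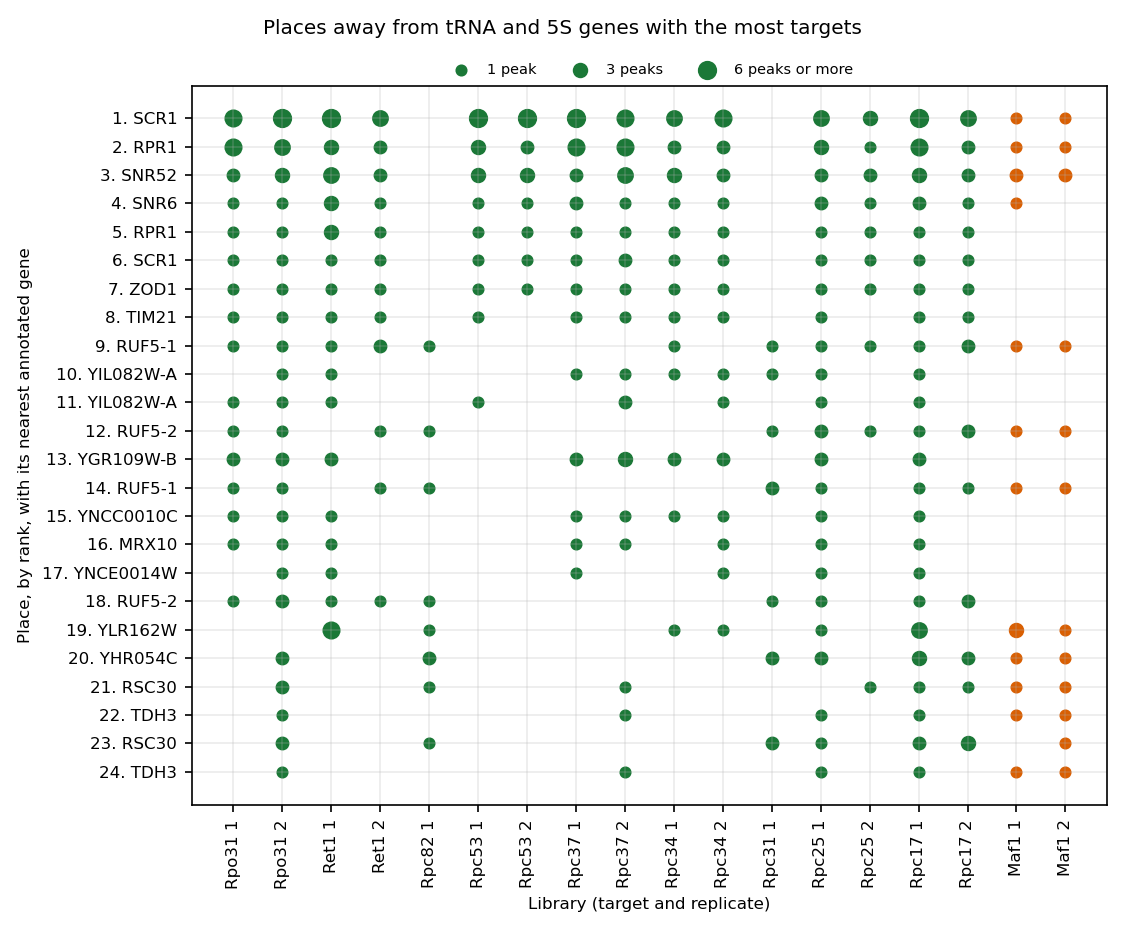
Presence of a peak in each of the 18 libraries (columns) at the 24 places away from tRNA and 5S genes with peaks of the most targets (rows, by rank and nearest annotated gene). Points grow with the number of peaks. Rows 1 to 8 are filled in nearly all libraries of the 7 subunits and empty for Rpc82 and Rpc31, and the CUP1 rows hold both of these libraries except row 21, which lacks Rpc31.

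The 81 shared places fell into a few kinds. There were 9 at other known polymerase III genes, 7 in the CUP1 stretch, 2 in the rRNA gene stretch, 15 between 250 and 500 bp from a tRNA gene, 34 in protein-coding genes and 14 in other intergenic sequence. Of the 15 near tRNA genes, 14 were on the upstream side, 257 to 331 bp away, and all 14 also had a TFIIIB peak while 6 had a TFIIIC peak. The single downstream one, 252 bp from YNCE0018W, had neither.

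Of the 34 shared places in protein-coding genes, 33 also had a polymerase II peak within 100 bp and 10 had one of TFIIIB or TFIIIC. The 14 polymerase II lists held 23121 peaks, and how many coding positions at large lie as close to one was not measured. Among the genes were TDH3, FBA1, CDC19 and ENO2 of glycolysis, PDC1, a pyruvate decarboxylase of alcoholic fermentation, PMA1, the plasma membrane proton pump, TEF1 and TEF2, the translation elongation factor, and ILV5 of branched amino acid synthesis. They were named after their values were seen. A median of 17.3% of libraries of other targets had a peak at these places.

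These places came from few libraries. The first Rpc25 library had 76 peaks in protein-coding genes, away from all the loci above, and the second had none. Maf1 had 53 and 122, of which 52 and 120 were within 100 bp of a polymerase II peak, again not set against coding positions at large. The genes with most peaks in the second Maf1 library included several of Ty retrotransposons. The second Rpo31 library had 16 and the first Rpc17 library 7, and both Rpc53 libraries and the second libraries of Ret1, Rpc34 and Rpc17 had none. Rpc31 had 12 such peaks, among them several in Ty genes. So only the Maf1 peaks in coding genes were present in both libraries of a target in numbers above 10.

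Over whole lists, peaks away from tRNA and 5S genes were more often near the factors than those of polymerase II. The share within 100 bp of a peak of any TFIIIB or TFIIIC library averaged 67.7% ± 23.4 over 9 polymerase III targets and 1.16% ± 0.610 over 7 polymerase II targets. The difference of 66.6 points gave an adjusted p = 0.00157 (two-sided exact permutation over targets). The counts behind these shares overlapped. Polymerase III libraries had 10 to 50 such peaks near the factors, in 15 to 151 peaks away from tRNA and 5S genes. Polymerase II libraries had 8 to 23, in 372 to 3249. The part of list length in the difference was not tested. Among the polymerase III libraries the share was 70.5% to 92.6% in 13 of the 14 libraries of the 7 subunits. It was also 86.7% in the Rpc82 library, 13 of its 15 peaks, which has no tRNA gene peak and 11 peaks in the CUP1 stretch, so a high value came without any peak at a tRNA gene. It was 29.7% in the first Rpc25 library, 28.9% and 20.5% in the Maf1 libraries and 35.7% in the Rpc31 library, and the part of peaks in coding genes in these values was not tested. Without Rpc31 the difference was 70.6 points.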

How the data were processed

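Members, gene lists and comparisons were chosen with earlier results of these data known. The authors used BWA, SAMtools and Picard, with sacCer3 as the build (versions not given), per the submitters' processing notes. ChExMix is the name written in the lists. The deposited peak score runs up to 1000; its definition is not given in the sources used here, and it was used only within a list. Read depth is unknown, so list length stands in its place, and intervals are 95% Wilson intervals for counting error only.

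A tRNA gene's peaks were counted with each peak at its nearest gene, unless stated. Positions were read as 1-based and set against the R64 gene table; strand came from the W or C of the locus name. No genome sequence was used. A target's value was the mean of its libraries with at least 20 peaks. Tests were two-sided exact permutations over targets, or one-sided exact tests over pairings of libraries, checked on simulated data, with Benjamini-Hochberg adjustment over 9 tests and a threshold of 0.05 (Python 3.11, numpy, pandas, scipy).

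Named genes were the known non-tRNA genes, the 10 places with most targets, tRNA genes with the fewest targets, the 5 with most peaks, SUP4 and SUP53.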

Additional observations from a re-analysis of the deposited data

How the results depend on the processing

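The 6 differences kept their direction and their side of the threshold under every alternative run except the mean of peaks, and the 3 tests among targets kept their side of the threshold, while their ratios crossed 1. With it, the position of polymerase III against TFIIIC was -0.611 bp (adjusted p = 0.940, exact permutation) and against TFIIIB 26.0 bp (adjusted p = 0.05, exact permutation); the mean counts the peaks past the 3′ end. Over 33 other alternatives each, these differences were -23.1 to -15.4 (the lower end in percent of gene length, the rest in bp) and 0.906 to 2.41. The difference in tRNA gene share was -18.7 to -1.42 points from TFIIIB and TFIIIC and 67.6 to 92.1 points from polymerase II, that in 5S gene share 1.5 to 2.12 points, and that of peaks near the factors 52.3 to 74.6 points. The ratio of differences within targets to those of all pairs was 0.675 to 1.14 for position, 0.390 to 1.55 for share and 0.366 to 1.52 for peak number, without a call.

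Leaving out 1 library, or all libraries of 1 replicate number, gave -12.5 to -1.60, 73.8 to 85.3, 1.61 to 1.88, -17.7 to -15.4, 0.906 to 2.41 and 63.4 to 73.6 for the 6 differences, in the order of tRNA share from factors, tRNA share from polymerase II, 5S share, position from TFIIIC, position from TFIIIB and peaks near factors. It gave 0.751 to 1.14, 0.390 to 1.32 and 1.14 to 1.52 for the ratios of position, share and peak number. The tests among targets had no value without a whole replicate number. Without Rpc31, an alternative added after seeing the data, is the same as a minimum of 50 peaks.

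No tRNA gene had a peak of every target with 20 peaks, since Rpc31 had none. Without Rpc31 there were 271, and 168 with the higher-scoring peaks of each list, those at or above its median score. In the 14 libraries of the 7 subunits that median was the highest score, 1000, so 75.9% to 98.4% of peaks stayed. The medians were 193 and 108 for Maf1 and 111 for Rpc31, so this setting bore mostly on those lists. The 81 shared places away from tRNA genes became 32 with the higher-scoring peaks and 23 when every library of a target had to have a peak. Leaving out the CUP1 and rRNA stretches could not be applied to the 5S share, and was not run there.

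Replicate numbers were not taken to pair the libraries. The correlation of deviations over tRNA genes between same-numbered libraries was -0.251 to 0.485, with a median of -0.0364. It was over 0.1 in 9 of 28 pairs of targets. These values alone do not settle whether same-numbered libraries are paired. With the replicate block the differences were -10.6, 75.1, 1.66, -16.6, 1.66 and 66.6 in the same order, and the ratios 0.955, 0.683 and 1.28. The replicate block changed no call.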
